A study of Mus musculus with 3 samples.

Results

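Rrad, Gem, Nfatc2, Nfatc1, Rcan1, Pde4b, Pde4d and Stk17b are 8 of the 32285 genes in the count matrices. They code for proteins that act between calcium or cyclic AMP and transcription. Rrad, Nfatc2 and Pde4b were picked on their values, since they stood high in the AngII library and low in the running library. The values of these 3 genes in these libraries, in any class of cells, are therefore a description. The other 5 are relatives or partners of these 3, or a further kinase. All 8 passed the minimum level described below in fibroblasts of every comparison.

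The cells came from the adventitia, the outer coat of the aorta, of mice. The Vehicle group was given saline, the AngII group angiotensin II, and the AngII_VWR group angiotensin II together with voluntary wheel running. Each group had 3 mice and was deposited as 1 library. How the mice were combined, their strain, sex and age, the dose and the length of treatment are not given in the sources used here, and there was no running group without angiotensin II. With 1 library per group no difference could be tested, and every interval below is a 95% interval for counting error alone. An effect of treatment, of the mice and of the preparation cannot be told apart.

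Fibroblasts were cells in which Col1a1, Col1a2, Dcn and Lum, genes of collagen and of collagen-binding proteins, made up at least 1% of the UMIs, molecules counted once each. They numbered 6610 of 12324 cells in Vehicle, 6095 of 9115 in AngII and 10989 of 16125 in AngII_VWR. Pdgfra, a fibroblast receptor that the rule did not use, had a UMI in 71.0, 76.9 and 63.3% of them and in 22.2, 11.3 and 10.6% of the other cells. The median depth of fibroblasts was 9434, 12966 and 4571 UMIs. The lowest depth and a later version of the counting software both belonged to the AngII_VWR library, so neither can be told apart from running. Of the barcodes, 44 occurred in both Vehicle and AngII, 80 in Vehicle and AngII_VWR, and 68 in AngII and AngII_VWR.

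Rad (from Rrad) and Gem are small GTPases of the RGK family, which bind the beta subunit of voltage-gated calcium channels and limit the current, and protein kinase A relieves the hold of Rad. A lasting rise of calcium activates the phosphatase calcineurin, which sends NFAT transcription factors such as NFATc1 and NFATc2 to the nucleus. NFAT proteins bind the DNA letters GGAAA, often next to AP-1, and Rcan1 is both a target of NFAT and a brake on calcineurin. PDE4B and PDE4D degrade cyclic AMP, the messenger that activates protein kinase A and the factor CREB. Stk17b codes for a serine/threonine kinase of the death-associated family best known from lymphocytes. Angiotensin II acts through a receptor that raises intracellular calcium in many cells of the vessel wall.

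In the annotation of GRCm38, the assembly also known as mm10, Rrad lies at chr8:104628070-104631327 on the minus strand and Gem at chr4:11704457-11714752 on the plus strand. Nfatc2 spans chr2:168476410-168601657 and Rcan1 chr16:92391953-92470867, both on the minus strand. Pde4b spans 519.7 kb at chr4:102087543-102607259 and Pde4d 1504 kb at chr13:108449948-109953461, both on the plus strand. Stk17b lies at chr1:53755506-53785224 on the minus strand. The antisense genes Gm33023 in Rrad and Gm46555 in Rcan1 held only 56 and 35 UMIs over the fibroblasts of all libraries.

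Upstream windows are shown because GGAAA is the core that NFAT proteins read and because Rcan1 is a known NFAT target. The RefSeq table (GRCm38.p6) held 10 start sites for 5 of the 8 genes, Nfatc2, Pde4b, Pde4d, Rcan1 and Stk17b, with the 250 bases before each. The window with the most GGAAA is printed for Rcan1, Nfatc2 and Pde4b, among windows without exon bases, 5′ to 3′ on the gene's strand, with GGAAA on either strand in capitals. They are chr16:92400079-92400328, inside the Rcan1 gene, chr2:168601658-168601907, next to the outermost start of Nfatc2, and chr4:102569810-102570059, inside the Pde4b gene.
Rcan1: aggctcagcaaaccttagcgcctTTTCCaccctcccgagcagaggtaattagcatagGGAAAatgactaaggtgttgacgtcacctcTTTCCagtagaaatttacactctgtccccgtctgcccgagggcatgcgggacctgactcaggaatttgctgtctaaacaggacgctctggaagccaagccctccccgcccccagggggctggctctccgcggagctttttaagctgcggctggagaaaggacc
Nfatc2: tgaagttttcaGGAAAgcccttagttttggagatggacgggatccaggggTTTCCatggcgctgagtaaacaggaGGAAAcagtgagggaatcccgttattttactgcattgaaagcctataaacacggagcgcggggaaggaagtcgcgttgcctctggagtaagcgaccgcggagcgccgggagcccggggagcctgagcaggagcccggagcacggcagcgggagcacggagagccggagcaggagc
Pde4b: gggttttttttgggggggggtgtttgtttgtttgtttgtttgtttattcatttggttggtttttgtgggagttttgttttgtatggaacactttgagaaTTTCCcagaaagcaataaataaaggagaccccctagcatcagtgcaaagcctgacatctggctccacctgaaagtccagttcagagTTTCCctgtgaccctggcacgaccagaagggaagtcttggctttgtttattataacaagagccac
GGAAA occurred 3 times in the Rcan1 window, 3 times in the Nfatc2 window and 2 times in the Pde4b window. Of 32851 windows of this length, 55.6% held GGAAA at least once on either strand, 21.4% at least 2 times and 6.39% at least 3 times. The printed windows were picked for the most GGAAA, so these shares do not measure how unusual they are. Among windows not printed, GGAAA occurred 1 time in those of Nfatc2, Stk17b and Pde4d, and 0, 1 and 3 times in those of Pde4b. The Rcan1 window also held the full CREB motif TGACGTCA, found in 1.55% of all windows, which contains 2 overlapping TGACG half-sites (17.8% hold at least 1). It held the AP-1 motif TGANTCA as well (6.75%). The other Rcan1 window, at chr16:92466170-92466419 before the long transcript, held none of these motifs. The matches describe letters, and no binding was measured.

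In fibroblasts, the RGK gene Rrad stood 10.9-fold higher in AngII than in Vehicle, and Nfatc2, Pde4b, Stk17b and Gem stood between 2.01- and 3.30-fold higher. The calcineurin inhibitor Rcan1 stood at nearly the same level in both libraries. In the running library Rrad, Nfatc2 and Pde4b were 6.10- to 9.97-fold lower than in AngII, while Stk17b kept the high level. Of the 8 genes, 5 were at least 2-fold higher in AngII than in Vehicle, where 3.46% of all 10454 measured genes were, and 0 were at least 2-fold lower (2.06%). Since 3 of these 5, Rrad, Nfatc2 and Pde4b, were picked for high values in the AngII library, nothing is read from that count. Of the 5 genes not picked in this way 2 were called, Gem and Stk17b. The 5 were also chosen with earlier results of these data known, so their count and their median below are descriptions. For AngII_VWR over AngII, 0 were higher (2.37% of 10593 genes) and 3 lower (1.95%), and these 3 are the genes picked for it. For AngII_VWR over Vehicle, Stk17b alone was at least 2-fold higher (4.40% of 10625 genes) and Nfatc2 alone 2-fold lower (2.56%). The median log2 ratio of the 5 genes not picked was 0.80 in AngII over Vehicle, where that of all measured genes was −0.07. In AngII_VWR over AngII it was −0.51, where that of all genes was 0.10. Both medians are the values of 1 gene, Pde4d. Over 14 other settings Pde4d ranged from 0.13 to 0.87 in the first comparison and from −0.84 to −0.13 in the second. Without the fibroblasts that carried activated fibroblast genes, which are described below, the first count fell from 5 to 2, Rrad and Nfatc2, and the log2 ratio of Rrad from 3.32 to 1.80. With fibroblast markers at 5% of UMIs or more, the log2 ratios of Pde4b and Stk17b for AngII over Vehicle were 0.56 and 0.67 in place of 1.65 and 1.61, and 5 genes in place of 2 were 2-fold apart in AngII_VWR over Vehicle.

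**Figure D1:**
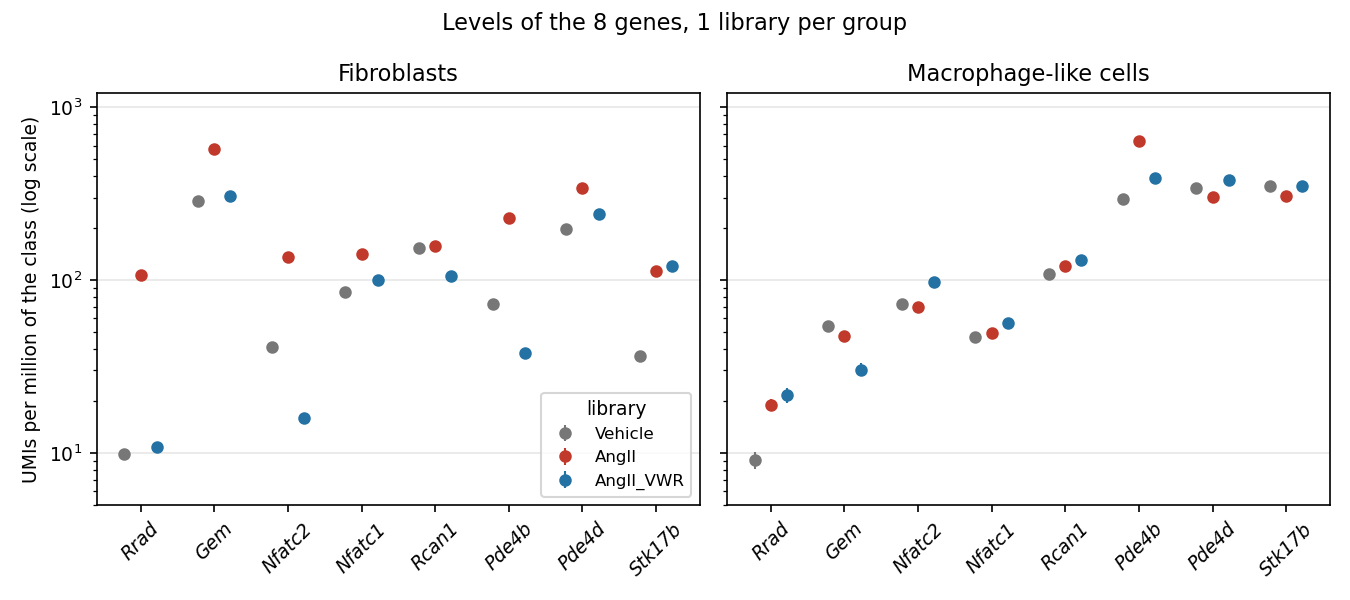
Levels of the 8 genes in fibroblasts (left) and macrophage-like cells (right), as UMIs of the gene per 1000000 UMIs of the class (CPM) on a log axis, 1 point per library, with bars for 95% Poisson intervals that are mostly smaller than the points. In fibroblasts the AngII points of Rrad (107), Nfatc2 (135) and Pde4b (229.8) lie above both other libraries, while Stk17b is high in AngII and AngII_VWR alike.

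Rrad, the GTPase that limits calcium channel current, had 9.84 UMIs per 1000000 UMIs (CPM; 9.13 to 10.6) in Vehicle fibroblasts, 107 (105 to 109) in AngII and 10.7 (9.92 to 11.6) in AngII_VWR. AngII stood alone, and Vehicle and AngII_VWR had overlapping intervals. The ratio of AngII over Vehicle was 10.9 (10.1 to 11.8), and the level in AngII_VWR was 9.97-fold lower than in AngII (9.19 to 10.8). Few cells held these UMIs. In AngII, 898 of 6095 fibroblasts had any Rrad UMI (14.7%), the top 1% of the cells held 43.8% of them, and the highest cell had 179. In Vehicle, 324 cells had one, the highest cell had 73 and the top 1% held 63.0%, and in AngII_VWR no cell had more than 14.

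Gem, the other RGK gene with substantial counts, had 287 CPM (283 to 290.4) in Vehicle, 576 (571 to 581) in AngII and 306 (302 to 311) in AngII_VWR. AngII again stood highest, 2.01-fold above Vehicle (1.98 to 2.04), and AngII_VWR was 1.88-fold below AngII (1.85 to 1.91). Unlike for Rrad, the intervals of Vehicle and AngII_VWR did not overlap, with AngII_VWR 1.07-fold higher (1.05 to 1.09). Gem was spread over many cells, with a UMI in 72.4% of AngII fibroblasts.

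Of the 11 genes fixed as RGK GTPases and L-type channel subunits, 7 were measured in AngII over Vehicle. Of these, 4 were at least 2-fold higher (3.46% of all measured genes): Rrad, Gem, Cacnb2 and Cacnb4. Rrad was picked for high values in AngII, and the list was chosen with earlier results known, so nothing is read from that count. Cacnb2, a channel beta subunit of the kind that RGK proteins bind, stood at 11.7 CPM in Vehicle, 36.9 in AngII and 26.2 in AngII_VWR. Its level in AngII_VWR remained 2.23-fold above Vehicle (2.05 to 2.43). The pore subunit Cacna1c stood at 94.7, 123 and 165 CPM in the same order. In AngII_VWR over AngII, 1 of 8 measured genes, Rem1, was at least 2-fold higher, from 3.57 to 7.29 CPM (2.37% of all measured genes). Rrad alone, which was picked for it, was at least 2-fold lower (1.95%).

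Nfatc2, which codes for a calcium-regulated transcription factor, stood at 41.0 CPM (39.6 to 42.5) in Vehicle, 135 (133 to 138) in AngII and 15.9 (14.9 to 16.9) in AngII_VWR. Here the running library lay below both others. It was 8.53-fold lower than AngII (7.98 to 9.13) and 2.59-fold lower than Vehicle (2.40 to 2.79). AngII was 3.30-fold above Vehicle (3.17 to 3.44).

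Nfatc1, a close relative of Nfatc2, stood at 85.6 CPM (83.5 to 87.7) in Vehicle, 142 (139 to 144) in AngII and 100.3 (97.7 to 103) in AngII_VWR. It was highest in AngII as well, 1.66-fold above Vehicle (1.61 to 1.71), but its level in AngII_VWR lay above Vehicle. Rcan1, the calcineurin inhibitor, stood at 153 CPM (150 to 155) in Vehicle, 157 (154 to 160) in AngII and 105 (103 to 108) in AngII_VWR. It thus differed 1.03-fold between AngII and Vehicle (1.00 to 1.06) and was 1.49-fold lower in AngII_VWR than in AngII (1.45 to 1.54). The near equality in AngII and Vehicle held over the fibroblast rule as a whole and not at every marker level: with fibroblast markers at 5% of UMIs or more, Rcan1 had 23.2 CPM in Vehicle, 125 in AngII and 65.2 in AngII_VWR.

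All 16 genes fixed as calcineurin and NFAT genes were measured. The picked gene Nfatc2 was the only one 2-fold apart in any of the 3 fibroblast comparisons. It was higher in AngII over Vehicle (3.46% of all measured genes). It was lower in AngII_VWR over AngII (1.95%) and in AngII_VWR over Vehicle (2.56%). The catalytic subunit Ppp3ca of calcineurin stood at 134 CPM in Vehicle, 198 in AngII and 213 in AngII_VWR, and the regulatory subunit Ppp3r1 at 32.5, 29.6 and 52.0. The other NFAT genes moved little: Nfatc3 stood at 41.1, 37.5 and 49.2 CPM and Nfat5 at 155, 170.4 and 162. The list's median log2 ratio was −0.02 in AngII over Vehicle and 0.02 in AngII_VWR over AngII.

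Pde4b, which codes for a cyclic AMP phosphodiesterase, stood at 72.6 CPM (70.6 to 74.5) in Vehicle, 229.8 (226 to 233) in AngII and 37.7 (36.1 to 39.3) in AngII_VWR. As with Nfatc2, the running library lay lowest, 6.10-fold below AngII (5.84 to 6.38) and 1.93-fold below Vehicle (1.83 to 2.03). AngII was 3.17-fold above Vehicle (3.07 to 3.26). Pde4d, the paralogue, stood at 196 CPM (193 to 199) in Vehicle, 341 (337 to 345) in AngII and 240.2 (236 to 244) in AngII_VWR. It was 1.74-fold higher in AngII than in Vehicle (1.70 to 1.77) and 1.42-fold lower in AngII_VWR than in AngII (1.39 to 1.45). Its log2 ratio for AngII over Vehicle, 0.80 from summed UMIs, was 0.13 when every fibroblast had the same weight.

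Of 17 phosphodiesterase genes, 12 were measured. Pde4b, a picked gene, and Pde4c were the 2 at least 2-fold higher in AngII than in Vehicle (3.46% of all measured genes). Pde4c went the opposite way to Pde4b in the running library. It stood at 1.54 CPM in Vehicle, 5.95 in AngII and 62.7 in AngII_VWR, and was 10.5-fold higher there than in AngII (9.59 to 11.6). In macrophage-like cells Pde4c also stood 10.3-fold higher in AngII_VWR than in AngII, at 32.5 against 3.17 CPM, so this difference was not limited to fibroblasts. The calcium-stimulated Pde1a stood at 45.7, 62.8 and 96.0 CPM in Vehicle, AngII and AngII_VWR fibroblasts.

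On the producing side of cyclic AMP, of 17 genes of adenylyl cyclases, protein kinase A and its anchors, 13 were measured in AngII over Vehicle. Akap12, a scaffold for the kinase, was the only one 2-fold apart there, at 224 CPM in AngII against 476 in Vehicle (2.06% of all measured genes were lower). In AngII_VWR over AngII 0 of 13 were 2-fold apart (2.37% of all higher and 1.95% lower). In AngII_VWR over Vehicle 2 of 12 were, Akap12 again lower (2.56%) and the cyclase gene Adcy5 higher (4.40%), at 24.0 against 9.88 CPM. The list of 11 CREB-responsive early genes also held Creb1, the gene of CREB itself, and the genes of its coactivators, Crtc1, Crtc2 and Crtc3. Of the 11, Nr4a2 alone was at least 2-fold higher in AngII than in Vehicle (3.46% of all measured genes). It stood at 344 against 125 CPM, and 0 of the 11 were 2-fold apart in AngII_VWR over AngII. Crem, another gene of that list, stood at 42.8 CPM in Vehicle, 67.3 in AngII and 58.3 in AngII_VWR, counted over all its transcripts.

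Stk17b, the death-associated kinase, stood at 36.5 CPM (35.1 to 37.9) in Vehicle, 113 (111 to 116) in AngII and 120.0 (117 to 123) in AngII_VWR. Both libraries with angiotensin II lay at least 3.11-fold above Vehicle, and they differed from each other 1.06-fold (1.03 to 1.09), a ratio that fell just below 1 when scaled to the median of all genes. Stk17b was thus the gene of the 8 that stood high in AngII and was not lower in AngII_VWR. The related kinases did not share this: Dapk1 stood at 169.5 CPM in Vehicle, 141 in AngII and 182 in AngII_VWR, and Dapk3 at 39.7, 33.1 and 26.4.

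Since depth differed between libraries, each fibroblast was also thinned to 2000 UMIs, which left 5586 cells in Vehicle, 5611 in AngII and 8792 in AngII_VWR and dropped 1024, 484 and 2197 shallower cells. For Rrad the share of cells with a UMI was 1.25% in Vehicle (0.978 to 1.58%), 6.51% in AngII (5.87 to 7.18%) and 1.65% in AngII_VWR (1.39 to 1.94%). Erythroid-like cells, blood cells not known for Rrad, gave 1.96% in Vehicle from 4 of 204 cells (0.537 to 4.94%), at a median of 11162 UMIs before thinning against 9434 for fibroblasts. The fibroblast shares of Vehicle and AngII_VWR were not above that value, whose interval is wide. These erythroid-like cells are no clean background, with 1806 CPM of smooth muscle and 2089 of macrophage markers, against 342 and 238 in Vehicle fibroblasts. Whether the fibroblast shares exceed background can therefore not be told from them. The Rrad UMIs of Vehicle fibroblasts were concentrated in few cells, with up to 73 in 1 cell. The 39 erythroid-like cells of AngII_VWR held 0 Rrad UMIs before thinning. In AngII_VWR itself, 0 of 57 neutrophil-like cells had one (upper limit 6.27%). Before thinning the fibroblast shares were 4.90, 14.7 and 3.80%.

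Nfatc2 had a UMI in 5.10% of thinned Vehicle fibroblasts, 11.2% in AngII and 2.40% in AngII_VWR. Pde4b had one in 9.72, 22.3 and 6.18%, and Gem in 29.7, 46.3 and 34.8%. The 3 genes kept the order of the CPM values, and their intervals did not overlap between libraries. Stk17b had a UMI in 7.39, 17.4 and 21.4%, so the share in AngII_VWR was above that in AngII. Nfatc1 (12.9, 16.9 and 14.5%) and Pde4d (24.4, 31.8 and 28.7%) differed less, and Rcan1 had 16.2, 15.6 and 11.1%. Erythroid-like cells of Vehicle gave 0.980% for Nfatc2 and 3.92% for Pde4b.

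**Figure D2:**
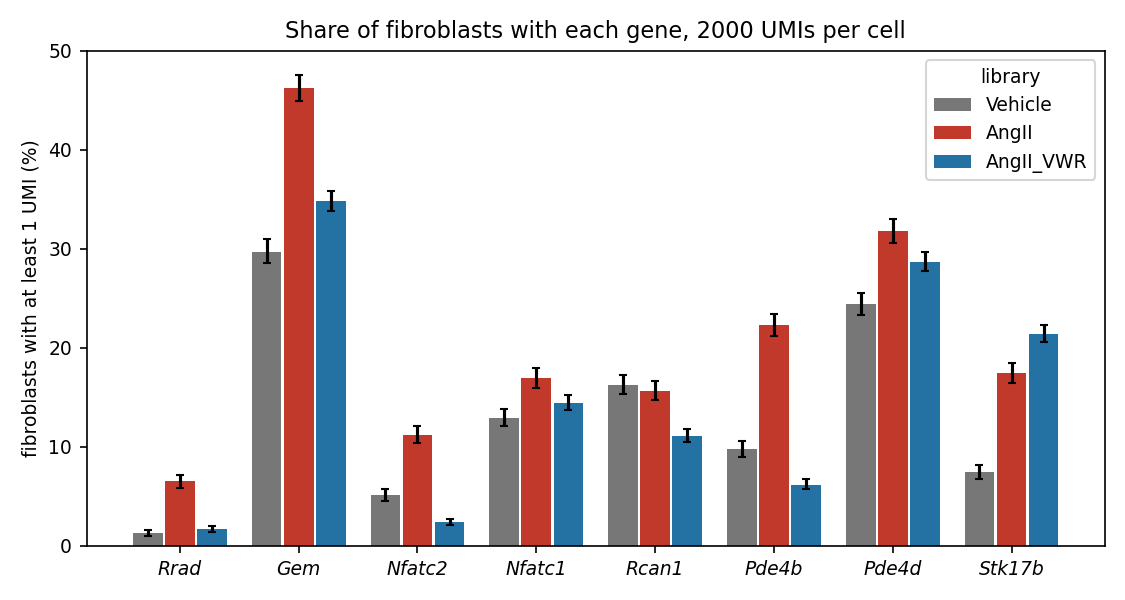
Share of fibroblasts (%) with at least 1 UMI of each gene after every cell was thinned to 2000 UMIs, 1 bar per library, with 95% Clopper-Pearson intervals. The AngII bar is highest for 6 of the 8 genes, with Rrad at 6.51% and Gem at 46.3%, Rcan1 is near equal in Vehicle and AngII, and Stk17b is highest in AngII_VWR.

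At 2000 UMIs, 4 or more of the 8 genes had a UMI in 9.21% of AngII fibroblasts, 1.38% in Vehicle and 1.99% in AngII_VWR, and none had one in 18.0, 31.6 and 26.6%. These shares move with the higher single shares in AngII, for which 3 of the genes were picked, so they add no separate result. In AngII, Rrad and Nfatc2 were both detected in 79 cells, where the product of their shares gives 40.9, a ratio of 1.93. Rrad and Pde4b shared 148 cells (81.4 from the product), so Pde4b had a UMI in 40.5% of the cells with Rrad and 21.0% of those without. Rrad and Nfatc2 were seen together in only 4 cells in Vehicle and 4 in AngII_VWR, close to the 3.57 and 3.48 from the products, which is too few to read.

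Nfatc2 and Nfatc1 were found together more often than the product of their shares in every library, with ratios of 1.82 in Vehicle (67 cells), 2.04 in AngII (218 cells) and 2.13 in AngII_VWR (65 cells). Rcan1 and Stk17b were found together less often, at 0.596, 0.759 and 0.629. Over 28 pairs in 3 libraries, 61 of 84 ratios were above 1. These are sparse counts with weak correlations between cells, the highest phi among the 8 genes in AngII being 0.168, and part of a ratio can follow the mixture of fibroblasts described next, which was not tested.

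**Figure D3:**
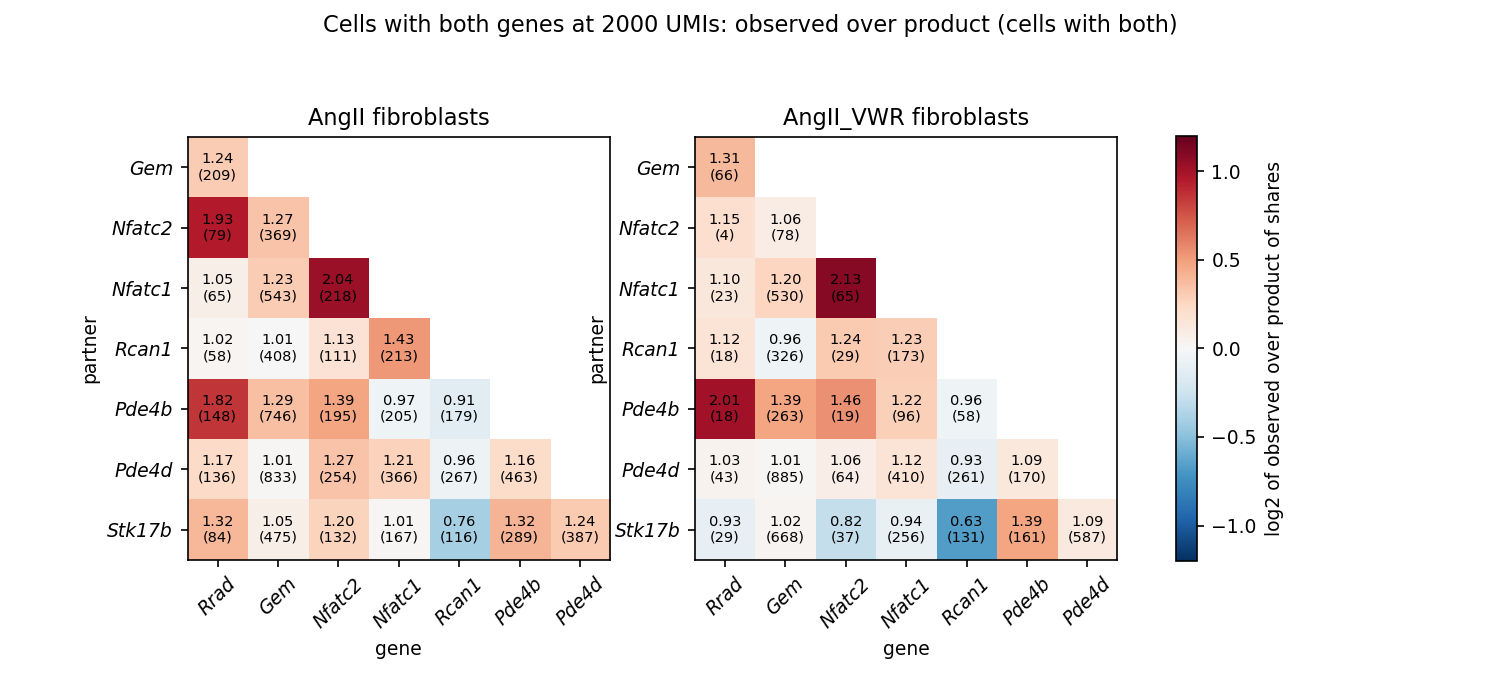
Pairs of the 8 genes in fibroblasts of AngII (left) and AngII_VWR (right) at 2000 UMIs per cell: each square gives the number of cells with both genes over the product of their shares, with that number of cells in parentheses, and colour shows the log2 of the ratio. Nfatc2 with Nfatc1 stands at 2.04 and 2.13, and Rcan1 with Stk17b at 0.76 and 0.63.

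Fibroblasts were also divided by 2 further lists at 2000 UMIs, 9 activated fibroblast genes such as Postn, Cthrc1 and Comp, and 7 progenitor genes such as Pi16 and Dpp4. These lists come from earlier results on these same libraries, so the division is not independent of them. Cells with at least 3 UMIs of the activated list only numbered 174 in Vehicle, 2030 in AngII and 2417 in AngII_VWR, and cells with the progenitor list only 3636, 1122 and 2171. In AngII, Rrad stood at 186 CPM in activated cells (181 to 190.3), 85.1 in cells with both lists, 47.9 with neither and 18.9 in progenitor cells (16.8 to 21.3). Nfatc2 stood at 199, 107, 131 and 43.9 CPM in the same order of groups, and Pde4b at 371, 142, 212 and 65.0, so both were also highest in activated and lowest in progenitor cells. Rcan1 was not, at 153 CPM in activated cells, 191 with both, 79.9 with neither and 187 in progenitor cells.

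Within the activated cells the AngII_VWR level was 11.5-fold lower than AngII for Rrad (10.1 to 13.1), 8.56-fold for Nfatc2 (7.71 to 9.54) and 5.63-fold for Pde4b (5.29 to 6.01). Within the progenitor cells these values were 2.67, 3.92 and 3.77, and within cells with neither list 4.81, 8.58 and 5.76. The 3 genes were lower in the running library at each of these marker levels. They were picked for this contrast, so these values are a description. Against Vehicle the differences were smaller within a marker level than over all fibroblasts. Rrad was 4.41-fold higher in AngII than in Vehicle within activated cells (3.56 to 5.52), 3.40-fold within progenitor cells and 2.41-fold with neither list. Pde4b was 2.37-, 1.15- and 2.02-fold higher, and Nfatc2 2.78-, 1.42- and 1.82-fold.

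Within activated cells AngII_VWR lay below Vehicle for Rrad (16.1 against 42.1 CPM), Nfatc2 (23.2 against 71.5 CPM) and Pde4b (65.8 against 157 CPM), from 174 Vehicle cells. The Rrad value of Vehicle rests on 86 UMIs, and at equal depth its share of cells was 2.30% in Vehicle (0.630 to 5.78%) against 2.65% in AngII_VWR (2.05 to 3.37%), so no lower level is read for it. For Nfatc2 the shares were 9.20 and 3.10%, and for Pde4b 15.5 and 10.4%. Stk17b stood at 52.4 CPM in the activated cells of Vehicle, 162 in AngII and 176 in AngII_VWR. In progenitor cells it stood at 32.2, 46.8 and 71.6 CPM, so AngII_VWR was 1.53-fold above AngII there (1.39 to 1.69).

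**Figure D4:**
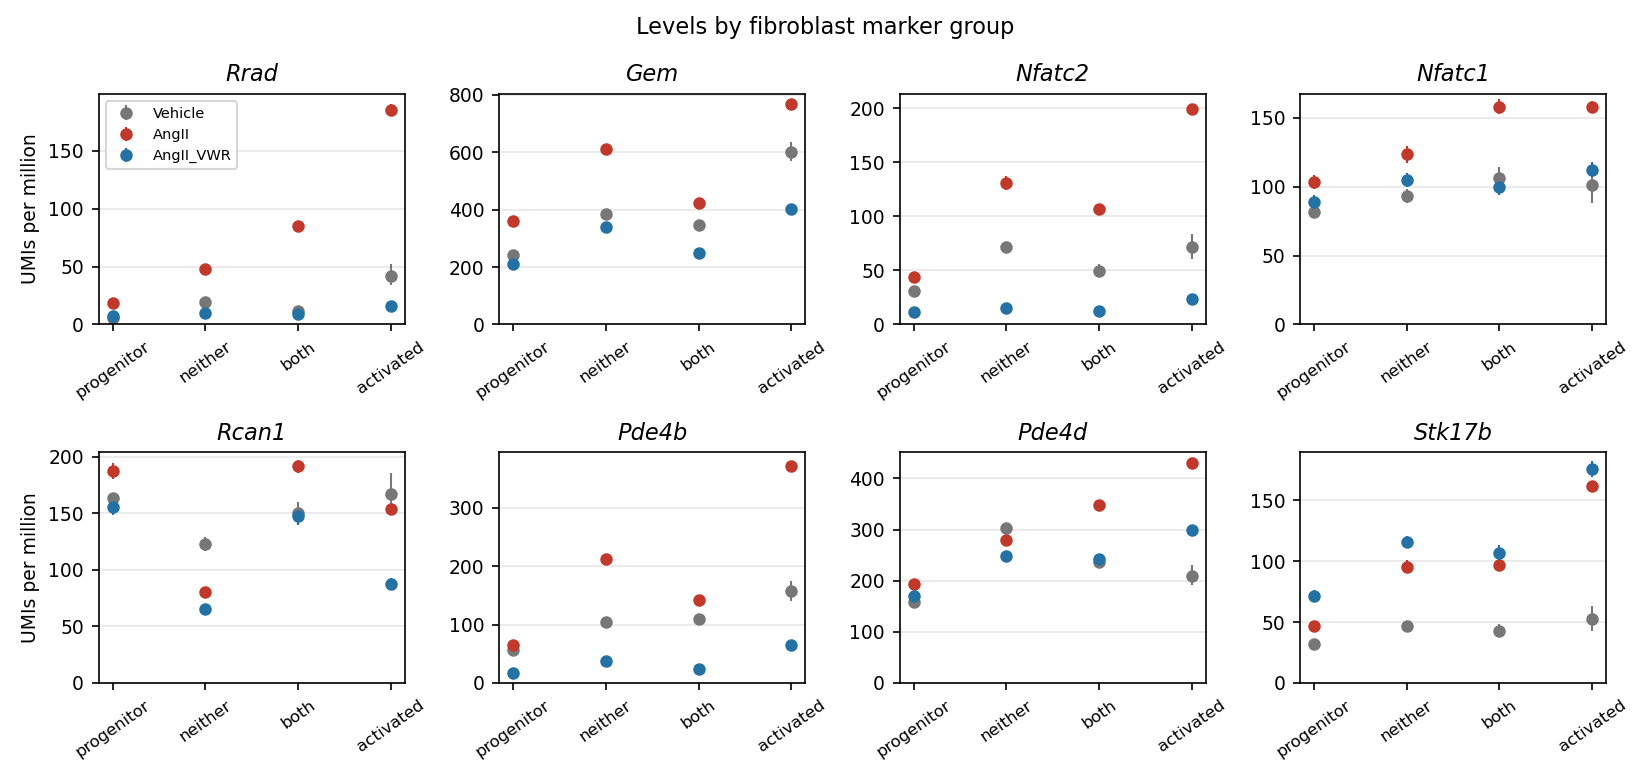
Levels of the 8 genes (CPM, linear axis from 0) in fibroblasts with progenitor genes only, with neither list, with both and with activated genes only, 1 point per library with 95% Poisson intervals. For Rrad, Nfatc2 and Pde4b the AngII points lie highest and the AngII_VWR points below them in all 4 groups; for Stk17b AngII_VWR lies at or above AngII.

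Among the other cells, which numbered 5714, 3020 and 5136, macrophage-like cells were the largest class, with 2596, 2073 and 3442. Pde4b, the main phosphodiesterase of many leukocytes, stood there at 294 CPM (289 to 300.1) in Vehicle, 641 (632 to 649.6) in AngII and 387 (378 to 396) in AngII_VWR. It was 2.18-fold higher in AngII than in Vehicle (2.13 to 2.23) and 1.66-fold lower in AngII_VWR than in AngII (1.61 to 1.70), the same directions as in fibroblasts. Pde4b was picked for high values in AngII and low values in AngII_VWR, so this is a description. At 2000 UMIs it was found in 34.2, 60.1 and 39.8% of macrophage-like cells.

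Nfatc2 in macrophage-like cells stood at 72.9 CPM in Vehicle, 69.9 in AngII and 97.3 in AngII_VWR, and so was not lowest in the running library there. Rrad stood at 9.07 CPM (8.09 to 10.1), 18.8 (17.4 to 20.4) and 21.6 (19.5 to 23.8), again with no lower value in AngII_VWR. Gem stood at 54.2, 47.2 and 30.3 CPM, and Rcan1 at 109, 121 and 130.4. Stk17b stood at 348, 308 and 348 CPM and lacked the contrast with Vehicle seen in fibroblasts. Of the 8 genes, Rrad and Pde4b were at least 2-fold higher in AngII than in Vehicle in this class (3.66% of 9848 genes). Both were picked for high values in AngII, so nothing is read from that count. In the same comparison 0 were lower (2.34%). In AngII_VWR over AngII 0 were 2-fold apart (6.20% higher and 2.12% lower of 10222 genes). In AngII_VWR over Vehicle, Rrad alone was at least 2-fold higher (5.87% of 10207 genes) and 0 were lower (1.88%). Whether the differences between libraries differ between the classes was not tested.

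Over all other cells together, Rrad went the opposite way to fibroblasts: it stood at 63.8 CPM in Vehicle, 23.6 in AngII and 29.5 in AngII_VWR. Smooth muscle-like cells held 83.2% of the Rrad UMIs of the other Vehicle cells. They numbered 570 in Vehicle, 19 in AngII and 46 in AngII_VWR, and in Vehicle they had 286 CPM of Rrad (277 to 296), 345 of Gem and 390.2 of Pde4b. Without them the other cells had 13.2, 22.5 and 28.2 CPM of Rrad and 66.8, 54.5 and 51.4 CPM of Gem. In all other cells 1 gene, the picked Pde4b, was at least 2-fold higher in AngII than in Vehicle (5.11% of 11363 genes). Rrad and Gem were at least 2-fold lower (11.2%). In AngII_VWR over Vehicle 0 were higher (4.53% of 11420 genes) and Rrad and Gem were lower (7.06%), and in AngII_VWR over AngII 0 were 2-fold apart (4.70% higher and 2.24% lower of 11133 genes).

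The order of the named classes with at least 50 cells differed between the 3 leading genes. Rrad was highest in ILC2-like cells, innate lymphocytes, at 391.6 CPM (339 to 450.0) in Vehicle, 232 (188 to 282) in AngII and 251 (194 to 321) in AngII_VWR. Those values come from 68, 57 and 82 cells, and the AngII and AngII_VWR intervals overlap. Few cells carried them: in Vehicle 18 cells held all 199 UMIs, and 1 cell held 94. By the share of cells at 2000 UMIs the order in Vehicle was another, with Rrad in 31.4% of smooth muscle-like cells (27.5 to 35.5%), 12.2% of T cell-like cells and 7.58% of ILC2-like cells (5 of 66). By CPM, smooth muscle-like cells followed in Vehicle, then T cell-like cells at 67.3 CPM. In AngII, fibroblasts came next after ILC2-like cells, at 107 CPM against 48.9 in T cell-like (31.0 to 73.4) and 35.9 in endothelial-like cells (26.6 to 47.5), and the last 2 had overlapping intervals. In AngII_VWR, T cell-like cells came next, at 129 CPM (89.6 to 181), then macrophage-like cells, and fibroblasts (10.7) overlapped endothelial-like cells (10.3). The 177 neutrophil-like cells of AngII_VWR had 0 Rrad UMIs, which allows up to 9.67 CPM.

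Among named classes of at least 50 cells, Nfatc2 in AngII was highest in fibroblasts, at 135 CPM, above macrophage-like (69.9), T cell-like (66.0) and ILC2-like cells (61.5), whose intervals overlap. Below that limit, the 18 Schwann-like cells of AngII held 111 Nfatc2 UMIs among 193097, a higher level than in fibroblasts. The 24 Schwann-like cells of AngII_VWR held 2 among 110749. In Vehicle, endothelial-like (78.6) and macrophage-like cells (72.9) overlapped each other and lay above fibroblasts (41.0), and smooth muscle-like cells had only 3.98 CPM. In AngII_VWR, fibroblasts lay below macrophage-like (97.3), T cell-like (87.5), ILC2-like (74.6) and endothelial-like cells (56.7). Pde4b was higher in macrophage-like, T cell-like, ILC2-like and endothelial-like cells than in fibroblasts in every library. The highest value in these classes was 1029 CPM (919 to 1148) in neutrophil-like cells of AngII_VWR, and B cell-like cells of Vehicle had 531 CPM. T cell-like cells stood at 351, 445 and 582 CPM of Pde4b and 477, 609 and 696 CPM of Stk17b in Vehicle, AngII and AngII_VWR.

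**Figure D5:**
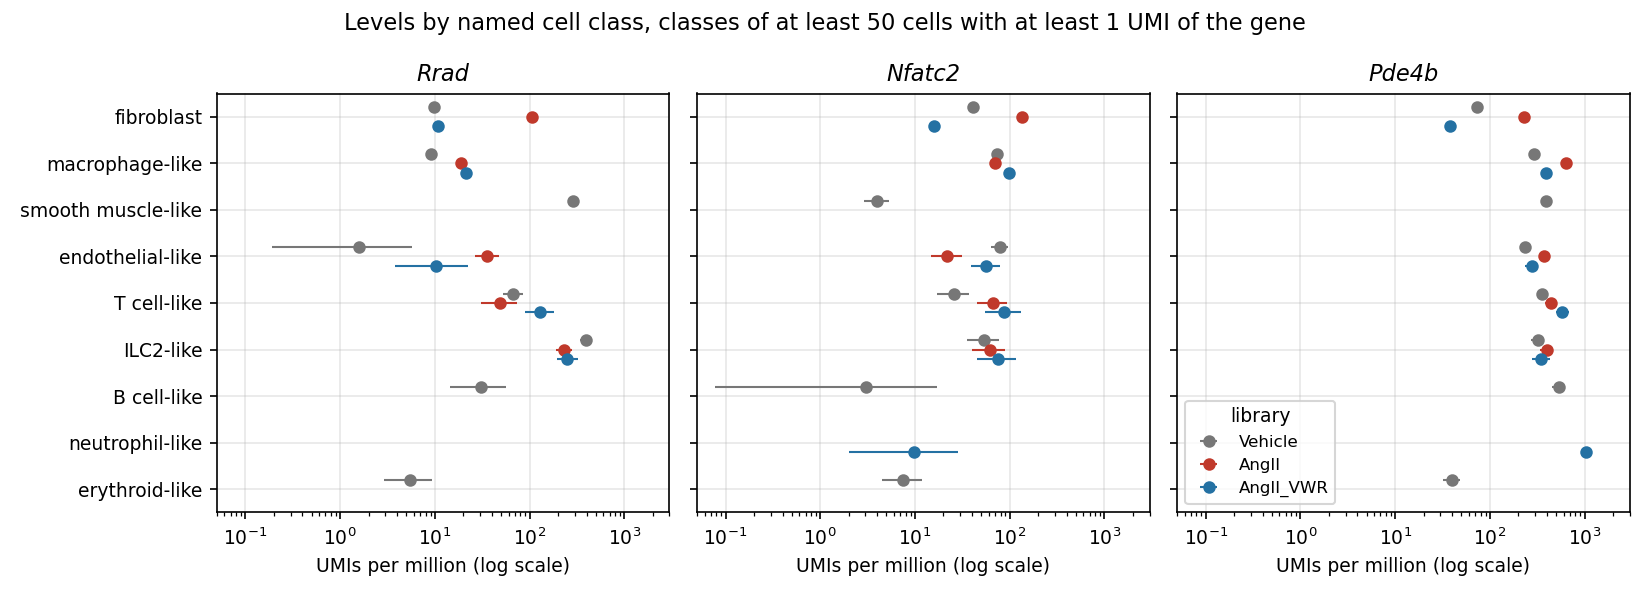
Levels of Rrad, Nfatc2 and Pde4b by cell class (CPM, log axis), 1 point per library with 95% Poisson intervals, for named classes with at least 50 cells and at least 1 UMI. The fibroblast points span 15.9 to 135 for Nfatc2 and 37.7 to 229.8 for Pde4b, genes picked for the difference between AngII and AngII_VWR. The CPM of Rrad, carried by few cells there, is highest in ILC2-like cells in each library.

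By likeness over 22 sums of a class in a library with at least 50 cells (Pearson r of log2 CPM + 1, over 10742 genes), the genes closest to Rrad were Plekha7 (r = 0.818), Dpy19l3 (0.803) and Zcchc10 (0.799). Closest to Nfatc2 were Gbp7 (0.821), Lgals3bp (0.802) and Gsdmd (0.798), and to Pde4b Arpc2 (0.851), Irak2 (0.848) and Mmd (0.832). Of these genes only Gbp7, Lgals3bp and Irak2 were highest in AngII among the fibroblast values, as the 3 leading genes were. Plekha7 stood at only 0.33, 1.13 and 2.24 CPM in Vehicle, AngII and AngII_VWR fibroblasts, and Arpc2 at 310, 296 and 306. The 3 leading genes were not among each other's closest: r was 0.169 between Rrad and Nfatc2, 0.247 between Rrad and Pde4b and 0.135 between Nfatc2 and Pde4b. The 22 points share libraries and depth, so these values are a description.

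Likeness between cells gave other names. Over 5149 genes in the 5611 thinned AngII fibroblasts, Pde4b was detected most together with Il6, a cytokine (phi 0.254), Socs3, an inhibitor of cytokine signalling (0.228), and the transcription factor Runx1 (0.197). Il6 had a UMI in 60.8% of the cells with Pde4b and 31.2% of those without. Rrad was found most with Pde4b (0.116), Socs3 (0.115) and Runx1 (0.108), and Nfatc2 with Nfatc1 (0.168) and the early genes Fosb (0.166) and Btg2 (0.154). Socs3 was 5.82-fold lower in AngII_VWR than in AngII fibroblasts, at 125 against 726 CPM, and stood at 579 in Vehicle. Runx1 stood at 21.9, 232 and 185 CPM and so was high in both libraries with angiotensin II.

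Cell dissociation induces early genes, and 18 such genes were measured beside the 8. In fibroblasts 0 of 18 were 2-fold apart in AngII over Vehicle (3.46% of all measured genes higher and 2.06% lower). In AngII_VWR over AngII 3 were at least 2-fold lower (1.95% of all measured genes): Atf3, Zfp36 and Socs3. In AngII_VWR over Vehicle, where Nfatc2 and Pde4b were lower too, 5 of 18 were at least 2-fold lower (2.56%): these 3, Ier2 and Dnajb1. Their sum was 24916 CPM in Vehicle, 25659 in AngII and 19067 in AngII_VWR. In macrophage-like cells it was 29188, 17085 and 19402 CPM. The median mitochondrial share of fibroblasts was 1.66, 2.39 and 2.28%, and the nuclear RNA Malat1 stood at 16303, 14134 and 18715 CPM. All 9 macrophage markers had UMIs in the fibroblasts, with a sum of 238, 196 and 507 CPM, and the 6 smooth muscle markers summed to 342, 244 and 256 CPM. The 5 erythroid markers summed to 1496, 580.1 and 180 CPM. The part of these values in the differences was not tested. Rrad is short (3.26 kb), while Pde4b and Nfatc2 (125 kb) exceed 100 kb, and genes of 100 kb or more had a median log2 ratio of 0.08 in AngII_VWR over AngII against 0.10 for shorter genes. In AngII over Vehicle the medians were 0.06 and −0.09, and 7.23% of the long genes against 2.76% of the shorter ones were at least 2-fold higher, so length moved with that comparison and its part in it was not tested.

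The fibroblast cut fell within a continuum in Vehicle. Cells with fibroblast markers at 0.5 to 1% of UMIs numbered 1216 in Vehicle, 290 in AngII and 746 in AngII_VWR, and those at 1 to 2% numbered 3064, 1153 and 3703. Rrad stood at 5.73, 9.96 and 6.25 CPM just below the cut and 6.62, 43.8 and 9.65 just above it. Pde4b stood at 37.3, 84.9 and 74.0 CPM just below and 33.7, 88.4 and 26.3 just above. Nfatc2 stood at 16.8, 16.4 and 19.1 CPM below and 21.2, 52.7 and 15.9 above. In the cells with fibroblast markers of at least 5%, Rrad reached 155 CPM in AngII against 10.3 in Vehicle and 12.0 in AngII_VWR. Fibroblasts that also passed the marker cut of another class numbered 190, 44 and 121.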

How the data were processed

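The authors deposited 1 matrix of raw UMI counts per library from 10x 3′ sequencing. They were written by Cell Ranger 7.0.1 (Vehicle, AngII) and 7.1.0 (AngII_VWR) per the file headers, on mm10 per the submitters' processing notes. Whether intronic reads were counted is not given in the sources used here. The features and barcodes files hold names only. Per the labels' protocols, digestion of the peeled adventitia took 20 min plus 40 min of rotation, and such steps can induce early genes. The libraries held 165977330, 141570158 and 105679209 UMIs in 15093, 10515 and 19633 barcodes.

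Filters removed barcodes under 300 genes or 500 UMIs, or with over 10% of UMIs from mitochondrial genes. Scrublet (scanpy 1.11.5) gave doublet scores, of which the top 0.8% for each 1000 barcodes were dropped (11.1, 7.92 and 15.2%). Fibroblasts followed the 1% rule. Other classes were set by marker shares of 0.2 to 1% of UMIs with at least 3 markers detected, cuts chosen after seeing the data, and a name such as macrophage-like means only that. Counts were summed per class and library and scaled to 1000000 UMIs (CPM). Measured genes reached 5 CPM in 1 of the libraries compared and 10 UMIs in all, and log2 ratios used CPM + 1. Intervals (95%) are exact Poisson for CPM, Clopper-Pearson for shares and exact conditional for ratios. With 1 library per group there was no test.

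For shares and pairs of genes each cell was thinned by a seeded draw to 2000 UMIs. The calculations were checked on simulated data. Coordinates come from GENCODE vM21 and windows from RefSeq. All 8 genes are named, with the 3 genes most like Rrad, Nfatc2 and Pde4b and members of fixed lists at least 2-fold apart with a CPM of at least 20, at most 4 per list. Others (relatives of members, list genes under that level, and genes from the pattern searches) were chosen after their values were seen. The 8 genes and the lists were chosen with earlier results of these data known. Other settings of the filters, doublets, fibroblast cut, cell weights, scaling, free RNA and pseudocount are compared in the closing section, and 2 of them were added after seeing the data. Python 3.11.15, numpy 2.4.6, scipy 1.17.1 and pandas 2.3.3 were used.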

Additional observations from a re-analysis of the deposited data

Results flagged for a closer look

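Rrad in AngII over Vehicle stood at a ratio of 10.9 in fibroblasts and 0.37 in all other cells, and Gem at 2.01 and 0.47. They went in opposite directions in the 2 sets of cells by at least 1.5-fold each, which is why they are listed. Smooth muscle-like cells numbered 570 in Vehicle and 19 in AngII, and without them the log2 ratio of Rrad in the other cells was 0.73 in place of −1.40. Nfatc2 in AngII_VWR over Vehicle stood at 0.387 in fibroblasts and 1.61 in all other cells. The differences between the 2 sets of cells were not tested.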

How the results depend on the processing

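The counts of genes at least 2-fold apart in fibroblasts were recomputed under 14 settings for each of 3 comparisons, and 40 of 42 counts stayed within 1.5 times the reported one. Of the single values 336 moved by less than their interval, 238 by more and 2 were counted as reversed. That last count does not cover every change of sign given below. In AngII over Vehicle, 5 became 2 (Rrad and Nfatc2) without cells of the activated list, a setting that also left out fibroblasts under 2000 UMIs. In AngII_VWR over Vehicle, 2 became 5 with fibroblast markers of at least 5% of UMIs, with Nfatc1, Rcan1 and Stk17b higher and Nfatc2 and Pde4b lower, from 415 Vehicle cells. The setting with cells of at least 2000 UMIs and the one without smooth muscle-like cells were chosen after seeing the data. The log2 ratio of Rrad over all other cells turned from −1.40 to 0.73 in AngII over Vehicle and from −1.09 to 1.04 in AngII_VWR over Vehicle without smooth muscle-like cells.

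In fibroblasts of AngII_VWR over AngII, the log2 ratio of Rrad (−3.20) ranged from −3.58 to −1.79, that of Nfatc2 (−3.02) from −3.37 to −2.57 and that of Pde4b (−2.58) from −3.37 to −2.18. In AngII over Vehicle, Rrad (3.32) ranged from 1.80 to 3.81, Nfatc2 (1.70) from 1.07 to 1.77, Pde4b (1.65) from 0.56 to 1.74, Stk17b (1.61) from 0.67 to 1.98 and Gem (1.01) from 0.74 to 1.08. Rcan1 in AngII over Vehicle (0.04) ranged from −0.17 to 2.38. With up to 20% mitochondrial UMIs, barcodes not scored for doublets were kept. Ratios of observed to expected pairs lay on the same side of 1 at 1000 or 4000 UMIs per cell in 137 of 168 cases. In AngII_VWR over Vehicle the small differences of Rrad, Gem and Pde4d changed sign in 1 or 2 of the 14 settings. The larger one of Rcan1 (−0.53) changed sign in 1 setting, to 1.45 with fibroblast markers of at least 5% of UMIs. No paired analysis was possible because each group is 1 library. The Rrad levels of Vehicle and AngII_VWR fibroblasts rest on 722 and 629 UMIs in few cells.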
